A study of Mus musculus with 12 samples.

Results

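The comparison is of SMA against control in the brain of mouse embryos at E14.5, with all 10481 genes of the count table taken into account. It uses 6 of the 12 libraries of the series, 3 from control and 3 from SMA embryos, and the other 6 are from spinal cord. Both groups are of the Taiwanese model of SMA and both carry the human SMN2 transgene on a single allele. Control embryos were Smn+/-; SMN2tg/0, so they kept a mouse Smn copy, and SMA embryos were Smn-/-; SMN2tg/0, so that all of their SMN came from the transgene. Both the deletion and the transgene are present in every cell. The libraries are biological replicates from 3 embryos of each genotype, and the p-values measure the spread between these libraries. Below, control 1 to 3 and SMA 1 to 3 are the brain libraries by their labelled number.

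Ribosome profiling reads the stretches of mRNA that ribosomes shield from RNase. How many such footprints a gene gives depends both on how much of its mRNA is present and on how densely ribosomes sit on each copy, and RNA-seq that could separate them was not analysed here. SMN is best known for loading Sm proteins onto spliceosomal snRNAs, and it also associates with ribosomes. At this age the mouse brain holds dividing radial glia along the ventricles, intermediate progenitors, and young neurons that have begun to extend axons.

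The brain libraries held between 3683842 and 9117017 counts, with control 1 the deepest and the other 5 at no more than 5406430. Correlations between pairs of libraries lay between 0.980 and 0.988 on the log2 scale. The 100 most counted genes took 12.5% of counts in control 1 and between 13.9% and 14.8% in the others. Along the first principal component (26.8% of the variance) SMA 1 lay furthest from the centre, and along the second (24%) SMA 3 did.

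The tissue label was checked against marker genes. Lhx2, a transcription factor of the forebrain, had between 131 and 185 normalized CPM in brain libraries and between 7.96 and 38.3 in spinal cord libraries. Otx2, a transcription factor of forebrain and midbrain, ranged from 87.4 to 134 in brain libraries, against 0.948 to 41.1 in those of spinal cord. The 7 Hox genes that mark spinal cord summed to at most 5.30 in brain and to at least 346 in spinal cord. Scaled over the brain libraries alone, Lhx2 had 139, 155 and 130 in control and 153, 183 and 132 in SMA, so the groups overlapped.

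Counts were scaled to CPM with TMM factors and tested with the quasi-likelihood test of edgeR on all genes and the 6 brain libraries. A log2 fold change is SMA minus control, so that a negative value is a lower footprint level in SMA. By the study's criteria a gene was called when its mean CPM reached 0.05, its log2 fold change reached 0.5 in size and its unadjusted p was below 0.05. For pathways the study took 0.3 as the smallest size of change with the same p. These are called the study thresholds and the pathway thresholds below. An unadjusted p below 0.05 was met by 529 genes, which is 5.05% of all genes tested. No gene reached an adjusted p below 0.05 in edgeR, where the smallest adjusted p was 0.902, so every gene described as past a threshold is a call on unadjusted p alone. Each library was also left out in turn, and where that cost a gene its call, the library is named with the log2 fold change without it in brackets.

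The study thresholds were passed by 160 genes, or 1.53% of all genes. Footprints were lower in SMA for 104 of them (0.992% of all genes) and higher for 56 (0.534%). These counts are of the fit made here. At the same cutoffs the paper reports slightly fewer genes in brain, with a larger share of them decreased. The pathway thresholds were passed by 394 genes (3.76%), of which 269 were lower (2.57%) and 125 higher (1.19%). Over all 10481 genes the directions were even, with 49.1% of genes lower in SMA and a median change of 0.00 (log2). Among the 9409 genes with 20 counts or more on average, the SMA libraries lay wholly above or wholly below the control libraries for 11.4%.

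The calls came mostly from weakly covered genes. When all genes were split into quintiles by mean CPM, the lowest quintile, up to 9.79 normalized CPM, held 49 decreased and 46 increased calls at the study thresholds. The next one held 45 decreased and 8 increased calls, the third 8 and 1, the fourth 2 and 1, and the highest, from 125 normalized CPM, held 0 in either direction. In that highest quintile 76 genes had an unadjusted p below 0.05 in edgeR, and 10 decreased and 5 increased genes passed the pathway thresholds. Of the 160 calls, 43 rested on a mean under 20 counts, and 75 both reached 20 counts and had no overlap between genotypes.

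Gene length split the calls as well. Genes in the shortest quintile, from 1 to 843 bases, had 12 decreased and 14 increased calls, and 33.3% of them were lower in SMA (median log2 fold change 0.09). Lengths are those given with the counts, and the shortest of them cannot be the length of a whole mRNA. The splits by length and by counts per base, and the detrending below, all rest on these lengths. Genes in the longest quintile, from 6135 bases, had 22 decreased and 5 increased calls, and 60.3% of them were lower, with a median of -0.03. Counts per base of gene ordered the genes likewise, with a median of -0.04 in the lowest quintile and 0.06 in the highest.

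Control 1 stood apart along this order. In the lowest quintile of counts per base, the median log2 deviation of a gene from its mean over the 6 libraries was 0.12 in control 1 and between -0.05 and 0.03 in the other 5. In the highest quintile it was -0.13 in control 1 and between -0.01 and 0.07 in the others. After a smooth curve on counts per base was subtracted from each library (called detrending below), 68 genes were decreased and 81 increased at the study thresholds, so the decreased share went from 65.0% to 45.6%. Without control 1 it was 52.1%, with 100 genes decreased and 92 increased. The part of depth or library preparation in this was not tested.

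**Figure D1:**
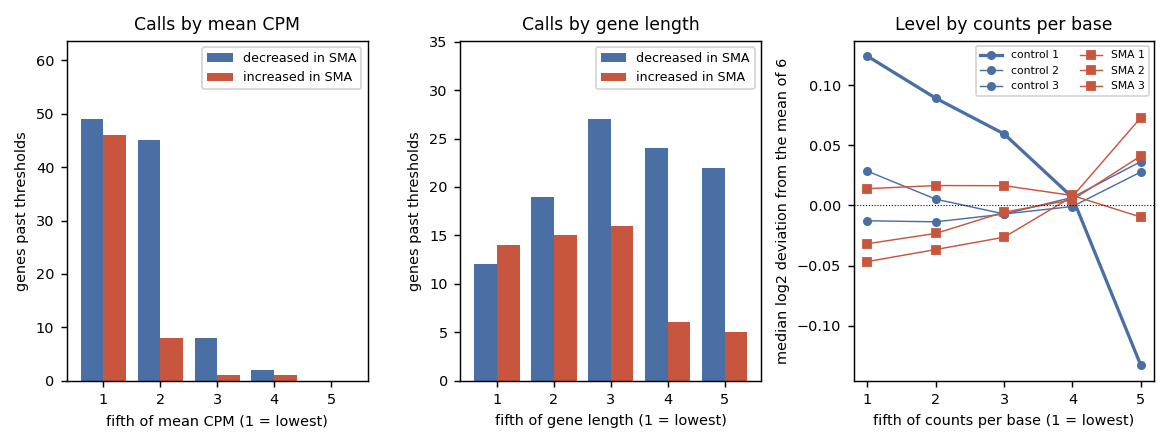
Genes past the study thresholds, decreased (blue) or increased (red) in SMA brain, in 5 equal groups of all genes by mean CPM (left) and by gene length (middle), and the median log2 deviation of each library from the mean of the 6 against counts per base (right). The highest group of mean CPM holds no call, and control 1 runs from 0.12 down to -0.13 while the other 5 libraries stay between -0.05 and 0.07.

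Symbols were at hand for 1999 of the 10481 identifiers, and 8482 genes had no name. The share called was alike, with 1.55% of named genes and 1.52% of genes without a name past the study thresholds. Decreased genes made up 22 of 31 calls among named genes and 82 of 129 among the rest. The gene lists below cover the named members of each pathway only, and each is read against all genes, of which 49.1% were lower in SMA and 2.57% passed the pathway thresholds as decreased and 1.19% as increased. Of the 1999 named genes alone, 52.7% were lower, with a median of -0.01. Among these, 80 passed the pathway thresholds, 56 of them as decreased. More lists were scored than are set out below, and in each list left out 0 members passed the pathway thresholds. Of those left out, p53 and its targets had 7 of 11 members lower (median -0.01) and the Wnt pathway 4 of 9 (0.04). Kinesins had 4 of 10 lower, translation factors and the proteasome 9 of 17 each, and chaperones 11 of 24.

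Mitosis genes were lower in SMA brain for 27 of 32 named members (median log2 fold change -0.17), and 3 of the 32 passed the study thresholds, all decreased. These were Ncapg, a subunit of the condensin I complex that compacts mitotic chromosomes, Ska1, part of the Ska complex that ties kinetochores to spindle microtubules, and Shcbp1, a protein of the spindle midzone that acts in cytokinesis. The other 29 members had log2 fold changes between -0.40 (Mybl2) and 0.25 (Ska3) and did not pass the pathway thresholds. Brain tissue was sampled in bulk, so fewer dividing cells and fewer footprints in each of them cannot be told apart.

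Many mitosis genes share a promoter element that played no part in choosing them, the cell cycle homology region, which is known to keep mitotic genes silent in resting cells. Its core letters TTTGAA, read on either strand, were found in the window from 250 bases before to 50 bases after the start in 11 of the 22 mitosis genes with a window in the RefSeq table at hand, against 20.2% of all 27025 genes of that table. The letters CCAAT, the core of the NF-Y binding site, were found on either strand in 17 of the 22, against 41.1% of all genes. A match is a description of the letters only. The 100 bases before the start are shown for 3 genes of the list that act at successive steps of mitosis, with the core letters, or TTCAAA where they lie on the other strand, in capitals (GRCm38.p6, 5′ to 3′ on the strand of the gene). Cdk1 drives entry into mitosis (chr10:69352913-69353012, minus strand), Kif11 is the motor that separates spindle poles (chr19:37376282-37376381, plus strand) and Ube2c passes ubiquitin to the ligase that ends mitosis (chr2:164769829-164769928, plus strand).
Cdk1: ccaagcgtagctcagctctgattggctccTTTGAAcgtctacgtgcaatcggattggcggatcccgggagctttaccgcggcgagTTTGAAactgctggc
Kif11: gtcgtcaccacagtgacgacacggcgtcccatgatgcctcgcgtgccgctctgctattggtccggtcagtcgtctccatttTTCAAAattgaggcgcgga
Ube2c: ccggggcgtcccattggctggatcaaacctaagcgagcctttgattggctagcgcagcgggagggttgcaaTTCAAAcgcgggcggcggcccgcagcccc
The element nearest the start begins 15 bases before it in Cdk1, 19 in Kif11 and 29 in Ube2c. In SMA against control brain, the log2 fold change of Cdk1 was -0.17 (standard error, SE, 0.13), that of Kif11 -0.14 (0.13) and that of Ube2c 0.02 (0.11), and none of these 3 passed. The element also lay in these 100 bases in Ncapg, which had -0.62 and passed. It lay there too in Cdc20 (-0.10), Top2a (-0.19) and Ska3 (0.25), which did not pass.

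Ncapg (chr5:45669891-45700547) had 51.5, 57.8 and 57.3 normalized CPM in control 1, 2 and 3 and 31.8, 41.9 and 33.3 in SMA 1, 2 and 3. Each SMA library was below each control library, with 55.5 ± 3.51 (SD, n = 3) in control against 35.7 ± 5.44 (SD, n = 3) in SMA. In log2 terms the difference was -0.62 (SE 0.14, unadjusted p = 0.000535 in edgeR), the smallest p of all named genes, and it stayed between -0.77 and -0.55 with any library left out. Ska1 had 7.51, 8.7 and 8.67 normalized CPM in control and 2.45, 2.76 and 5.78 in SMA, again without overlap, from a mean of only 32 counts per library. For Ska1 the log2 fold change was -1.20 (SE 0.31, unadjusted p = 0.00173 in edgeR) and lay between -1.64 and -0.99 with any library left out.

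Shcbp1 (chr8:4735976-4779567) had 26.3, 20.7 and 24.3 normalized CPM in control and 19, 18 and 6.88 in SMA. SMA 3 was far below the other SMA libraries, which lay just under the lowest control. The log2 fold change of -0.69 (SE 0.27) was no longer past the thresholds without control 1 (-0.60) or SMA 3 (-0.38). Aurkb, the kinase of the chromosomal passenger complex, had no overlap between genotypes, with 69.3 ± 2.36 (SD, n = 3) in control against 59 ± 1.93 (SD, n = 3) normalized CPM in SMA, and a log2 fold change of -0.23 (SE 0.11) that is under the fold threshold. Top2a, the topoisomerase that untangles sister chromatids, had 161, 182 and 167 in control and 149, 157 and 141 in SMA, which do not overlap either, and a log2 fold change of -0.19 (SE 0.09) that did not pass. Chfr, a mitotic checkpoint ligase, had 202, 155 and 178 in control and 129, 152 and 155 in SMA, where control 2 reached the level of SMA 3, and at -0.29 (SE 0.11) it too was under the fold threshold.

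The list of DNA replication genes had 23 of 29 members lower in SMA, with a median of -0.13, and 2 passed the pathway thresholds as decreased. Gmnn, or geminin, which blocks a second licensing of replication origins in the same cycle, had 39.7, 37.7 and 35.9 normalized CPM in control and 29.9, 31.8 and 26.4 in SMA. Its libraries did not overlap, and the log2 fold change was -0.36 (SE 0.13). Cdc6, which helps load the replicative helicase at origins, had 31.5, 28.4 and 23.1 in control and 17.7, 24.6 and 22 in SMA, with overlap, and a log2 fold change of -0.37 (SE 0.17). Gmnn did not pass when the fit left out control 1 (-0.32) or SMA 3 (-0.30). Cdc6 did not pass when it left out control 1 (-0.26), control 2 (-0.36), SMA 1 (-0.26) or SMA 3 (-0.39). The helicase subunits Mcm2, Mcm4 and Mcm5 had log2 fold changes of -0.01, -0.21 and -0.02 and did not pass. Uhrf1, which guides maintenance methylation behind the fork, had 267 ± 26.7 (SD, n = 3) against 227 ± 6.66 (SD, n = 3) normalized CPM and was under the fold threshold at -0.23 (SE 0.09).

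By library, the median mitosis gene deviated from its mean over all 6 by 0.09, 0.20 and -0.01 in control and by -0.08, 0.04 and -0.16 in SMA on the log2 scale. SMA 2 was thus above control 3, and the list as a whole overlapped between genotypes. The median log2 fold change of the mitosis list was -0.09 when either control 2 or SMA 3 was left out and -0.22 without SMA 2, with 4, 3 and 7 members past the pathway thresholds as decreased. For the replication list the median lay between -0.16 and -0.08 with any library left out, 0 members passed when control 1 or SMA 3 was left out and 4 passed without SMA 2. Detrending gave medians of -0.12 and -0.06, with 22 of 32 mitosis genes and 19 of 29 replication genes lower. The DNA repair list had 17 of 19 members lower with a median of -0.12 (-0.18 without control 3 and -0.08 without control 2), and 0 had an unadjusted p below 0.05 in edgeR.

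**Figure D2:**
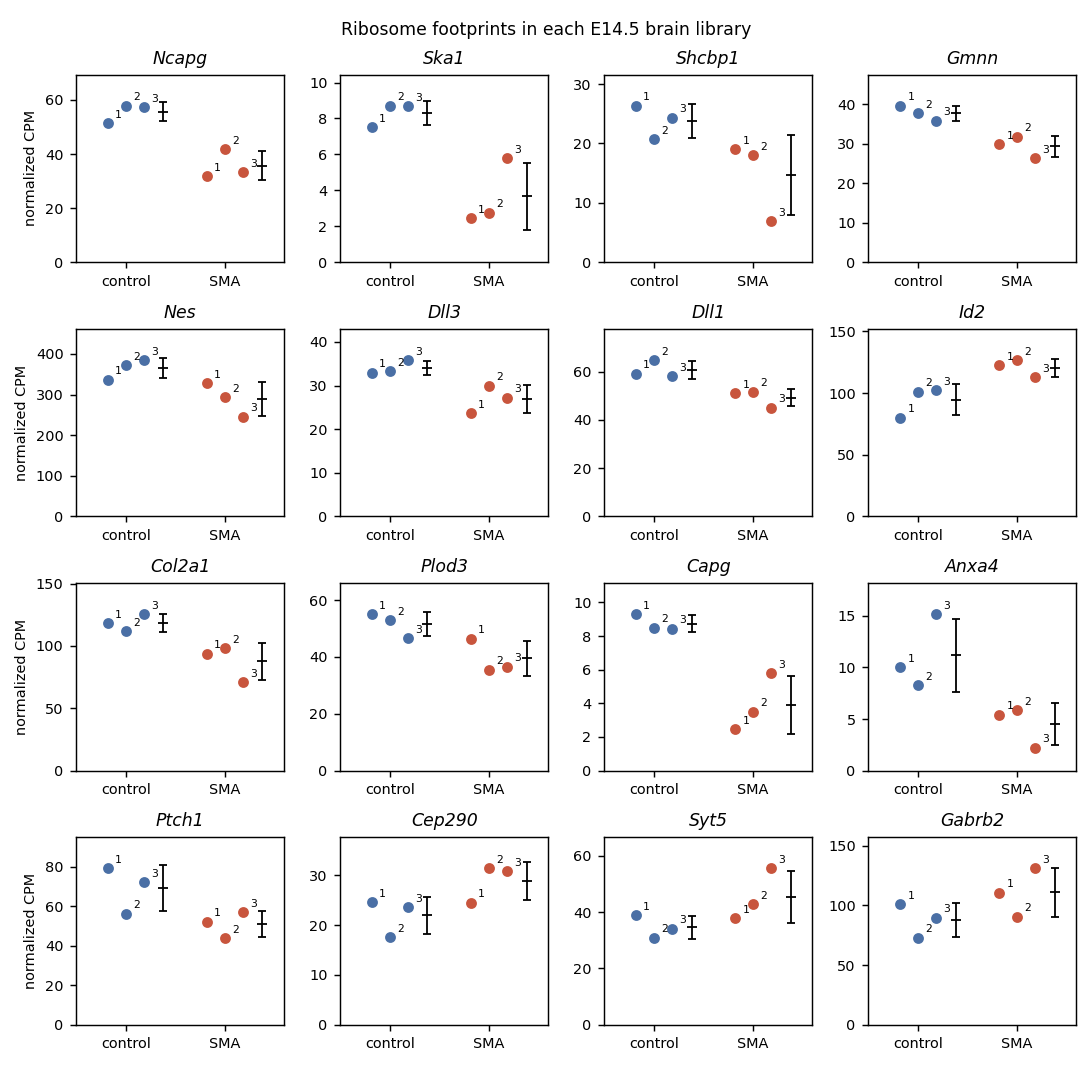
Normalized CPM of 16 genes in each brain library (points, numbered by library; control blue, SMA red), with the mean and SD of each group in black. Ncapg, Ska1, Shcbp1, Gmnn, Nes, Dll3, Dll1, Col2a1, Plod3, Capg and Anxa4 have every SMA library below every control library, Id2 has every SMA library above, and Ptch1, Cep290, Syt5 and Gabrb2 overlap.

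Genes of neural progenitors were called in both directions. Of 14 named members, 10 were lower in SMA, with a median of -0.11, and 2 passed the pathway thresholds as decreased, Nes and Dll3, and 1 as increased, Id2. Nes encodes nestin, the intermediate filament of radial glia, Dll3 is a divergent Notch ligand that acts within the cell, and Id2 binds bHLH factors and keeps them from DNA. The median lay between -0.17 and -0.02 with any library left out, and it was -0.09 after detrending.

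Nes (chr3:87971093-87980451) had 337, 372 and 385 normalized CPM in control and 328, 294 and 245 in SMA. All SMA libraries were below all control libraries, though SMA 1 was close to control 1. In log2 the change was -0.33 (SE 0.11, unadjusted p = 0.00934 in edgeR), from a mean of 1714 counts per library, and it was under the fold threshold without control 3 (-0.29) or SMA 3 (-0.23). Dll3 (chr7:28293555-28301785) had 33, 33.4 and 35.9 in control and 23.7, 29.9 and 27.3 in SMA, again without overlap. For Dll3 the log2 fold change was -0.33 (SE 0.14), and it no longer passed without control 3 (-0.29), SMA 1 (-0.25) or SMA 3 (-0.33). Dll1, the Notch ligand that newborn neurons present to neighbouring progenitors, had 59.2, 64.9 and 58 in control and 51.1, 51.6 and 45.1 in SMA. Its libraries did not overlap either, and its log2 fold change of -0.30 (SE 0.12) was smaller than the fold threshold before rounding, so that it did not pass.

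Id2 (chr12:25093799-25096092) had 79.9, 101 and 102 normalized CPM in control and 123, 127 and 113 in SMA. Each SMA library was above each control library, with control 1 the lowest of all. The log2 fold change was 0.36 (SE 0.12, unadjusted p = 0.00787 in edgeR), and it was under the fold threshold without control 1 (0.25). The related Id3 and Id4 had 0.07 and 0.09 and did not pass. Other radial glia genes of the list also did not pass, with -0.16 (SE 0.11) for Sox9, -0.05 (0.11) for Slc1a3 and 0.17 (0.12) for Fabp7. The list of neuronal commitment genes was balanced, with 6 of 13 members lower, a median of 0.00 and 0 past the pathway thresholds, and 1 member had an unadjusted p below 0.05 in edgeR. That was Nsg2, a protein of neuronal endosomes, with 403 ± 51.6 (SD, n = 3) normalized CPM in control and 473 ± 36.9 (SD, n = 3) in SMA, with overlap.

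Hedgehog signalling patterns the ventral brain and expands progenitors, and in vertebrates it runs through the primary cilium. Of 5 named members of the pathway, 2 passed the pathway thresholds and both were decreased. Ptch1 (chr13:63508328-63573460), the receptor of the ligand and itself a target gene of the pathway, had 79.3, 56.4 and 72.2 normalized CPM in control and 52.2, 43.9 and 57 in SMA. Control 2 lay below SMA 3, so the groups overlapped, and the log2 fold change was -0.46 (SE 0.15). Rab23 (chr1:33719896-33742564), a small GTPase that restrains the pathway, had 77.4, 71.3 and 62.8 in control and 42.1, 67.1 and 49 in SMA, also with overlap, and a log2 fold change of -0.41 (SE 0.16). Ptch1 no longer passed without control 1 (-0.34) or SMA 2 (-0.35). The call of Rab23 was lost without control 1 (-0.33), SMA 1 (-0.28) or SMA 3 (-0.36). The other members Rab34, Prkaca and Prkar1a had -0.01, 0.09 and 0.08.

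Named genes of the cilium itself were balanced in brain. Of 9 named genes of intraflagellar transport and the BBSome, 3 were lower, the median was 0.05 and 0 passed the pathway thresholds or had an unadjusted p below 0.05 in edgeR. Of 14 genes of the transition zone and basal body, 7 were lower, the median was 0.00 and 1 passed, Cep290, as increased. Cep290 (chr10:100487548-100575671), which links the membrane of the transition zone to its microtubules, had 24.6, 17.6 and 23.6 normalized CPM in control and 24.5, 31.4 and 30.8 in SMA. SMA 1 was level with control 1, and the log2 fold change was 0.39 (SE 0.17). Its call was lost without control 2 (0.26), SMA 2 (0.32) or SMA 3 (0.35). For its pathway analysis the paper merged brain with spinal cord. There it reports lower occupancy of Cep290 and of most genes of its cilium assembly pathway. The values here are of brain alone and of members with a name at hand.

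Of 21 genes of the meninges and extracellular matrix, 6 passed the pathway thresholds, all decreased. Over the whole list 14 were lower and the median was -0.09, which became -0.21 without control 2, -0.18 without SMA 2, -0.14 without SMA 1 and -0.05 without control 1. The 6 were the fibrillar collagen chains Col2a1 and Col1a1, the basement membrane proteins Col18a1 and Nid1, the collagen lysyl hydroxylase Plod3, and Rcn3, a calcium-binding protein of the ER. Sparc, Vcan and Timp2, which also act in the matrix, had 0.00, -0.06 and 0.07. Leaving out control 1 gave 2 decreased members past the thresholds and leaving out control 2 gave 7, while SMA 2 or SMA 3 left out gave 3.

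Col2a1 (chr15:97975602-98004724) had 118, 112 and 125 normalized CPM in control and 93.8, 97.9 and 70.7 in SMA, without overlap. The log2 fold change was -0.43 (SE 0.12, unadjusted p = 0.00422 in edgeR), and it stayed past the pathway thresholds with any library left out, between -0.52 and -0.31. Plod3 (chr5:136987019-136996646) had 55.1, 53 and 46.7 in control and 46.5, 35.5 and 36.6 in SMA, where SMA 1 nearly touched control 3. The log2 fold change was -0.40 (SE 0.14), and the call was lost without SMA 2 (-0.32). Rcn3 had 61 ± 3.83 (SD, n = 3) in control against 48 ± 6.98 (SD, n = 3) in SMA, without overlap, and a log2 fold change of -0.35 (SE 0.13) that did not pass without control 1 (-0.30) or SMA 3 (-0.24).

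Col18a1 was tight in control, with 68.1, 67.1 and 66 normalized CPM, and had 62.8, 53.3 and 44.9 in SMA, and a log2 fold change of -0.32 (SE 0.13). Nid1 overlapped, with 95.6, 77.9 and 100 in control and 56, 68.3 and 85.9 in SMA, and had -0.38 (SE 0.15). Col1a1 had only 8.88, 4.56 and 5.3 in control and 2.45, 4.78 and 2.48 in SMA, with overlap and -0.95 (SE 0.35). All 3 calls were lost when a library was left out. For Col18a1 these were control 1 (-0.31), SMA 2 (-0.32) or SMA 3 (-0.22). For Nid1 they were control 1 (-0.35), control 3 (-0.32), SMA 1 (-0.25) or SMA 2 (-0.37). For Col1a1 they were control 1 (-0.54), SMA 1 (-0.79) or SMA 3 (-0.80).

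Markers of blood vessels were summed beside these genes. The 3 endothelial markers with a name, Esam, Icam2 and Ramp2, summed to 83.7, 90.3 and 82.1 normalized CPM in control and to 66.3, 71.8 and 69.9 in SMA, without overlap. Esam, an adhesion molecule of endothelial junctions, had a log2 fold change of -0.44 (SE 0.21), Ramp2, a subunit of the adrenomedullin receptor, had -0.28 (0.13) and Icam2, an adhesion molecule, had 0.06 (0.46), and none of the 3 passed. Summed over all 6 endothelial genes of the longer list, levels overlapped, with 126, 149 and 119 in control and 112, 131 and 109 in SMA. One of the 6 passed, Ly6c1, from a mean of 12 counts, with 3.81, 2.69 and 3.61 in control and 0, 0.184 and 2.75 in SMA, and a log2 fold change of -1.93 that was -4.71 without SMA 3 and whose call was lost without control 1 (-1.80) or SMA 2 (-1.31). The meningeal marker Aldh1a2 had 0.211, 0.207 and 0.241 in control and 0, 0 and 0 in SMA, from a mean of 1 count. The part of vessel and meningeal cells in the lower values of this list was not tested.

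Myeloid markers overlapped. The 5 with a name summed to 6.24, 4.56 and 7.71 normalized CPM in control and to 4.89, 12.1 and 3.85 in SMA. Of 16 genes on the longer myeloid list 1 passed, Ptpn6, a tyrosine phosphatase of blood cells, with 4.34, 6.42 and 3.85 in control and 0, 0.184 and 3.3 in SMA and a mean of 17 counts. SMA 3 was close to control, while SMA 1 and SMA 2 had almost none, and the log2 fold change of -2.19 was -5.20 without SMA 3.

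Of 27 actin cytoskeleton genes, 11 were lower with a median of 0.02, and 3 passed the pathway thresholds, all decreased. Capg (chr6:72538282-72562983), which caps the fast-growing end of actin filaments, had 9.3, 8.5 and 8.43 normalized CPM in control and 2.45, 3.49 and 5.78 in SMA. Its libraries did not overlap, the log2 fold change was -1.18 (SE 0.28, unadjusted p = 0.00102 in edgeR), and it passed with any library left out, between -1.53 and -0.97. Vcl, or vinculin, which couples actin to cell adhesions, had 33.4 ± 3.95 (SD, n = 3) in control against 24.9 ± 4.82 (SD, n = 3) in SMA and a log2 fold change of -0.40 (SE 0.16). Cnn2, a calponin of motile and contractile cells, had 9.82 ± 1.3 (SD, n = 3) against 7.16 ± 0.88 (SD, n = 3) and a log2 fold change of -0.46 (SE 0.21). The call of Vcl was lost without control 3 (-0.31) or SMA 3 (-0.26), and that of Cnn2 without control 1 (-0.34), control 3 (-0.46), SMA 1 (-0.44) or SMA 3 (-0.38). Actin regulators of neurons and of other cells did not pass, with 0.09 for Cdc42, 0.10 for Rac1, 0.15 for Wasf1 and 0.21 for Pfn1.

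Outside the lists, 2 decreased and 2 increased named genes passed the study thresholds without overlap. Anxa4 (chr6:86736840-86793634), an annexin that binds membranes when calcium rises, had 10.0, 8.29 and 15.2 normalized CPM in control and 5.44, 5.88 and 2.2 in SMA. Its log2 fold change of -1.24 (SE 0.33, unadjusted p = 0.00199 in edgeR) stayed past the thresholds with any library left out, between -1.52 and -0.95. Sdc4, a heparan sulfate proteoglycan of focal adhesions, had 8.04, 6.22 and 5.54 in control and 4.89, 3.12 and 4.95 in SMA, and a log2 fold change of -0.68 (SE 0.28) that was lost without control 1 (-0.48) or SMA 2 (-0.46).

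Pygl (chr12:70190815-70227683), the liver form of glycogen phosphorylase, had 4.55, 2.9 and 5.3 normalized CPM in control and 6.25, 7.17 and 9.08 in SMA. Slc38a4 (chr15:96994816-97055956), a transporter of neutral amino acids, had 4.12, 4.56 and 2.41 in control and 6.25, 6.61 and 6.06 in SMA. Every SMA library was above every control library for both, at means of 29 and 25 counts. The log2 fold changes were 0.81 (SE 0.28) for Pygl and 0.74 (0.28) for Slc38a4. Pygl no longer passed without SMA 3 (0.66), and Slc38a4 without control 3 (0.55) or SMA 2 (0.70).

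Among genes with many counts, 3 more were picked after their values were seen. Plec, or plectin, which links intermediate filaments to adhesions and to actin, had 310, 263 and 307 normalized CPM in control and 241, 253 and 176 in SMA, without overlap, a log2 fold change of -0.39 (SE 0.13) from a mean of 1397 counts. Fam241b had 118, 85.8 and 102 in control and 132, 122 and 160 in SMA, and 0.42 (SE 0.14). Stambp, a deubiquitinase of endosomes, had 63.5, 65.5 and 58.3 in control and 82.6, 74 and 79 in SMA, and 0.33 (SE 0.11). Every SMA library was above every control library for these last 2 genes. Plec no longer passed the pathway thresholds without SMA 3 (-0.25), Fam241b without SMA 3 (0.30) and Stambp without control 3 (0.28) or SMA 1 (0.29).

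**Figure D3:**
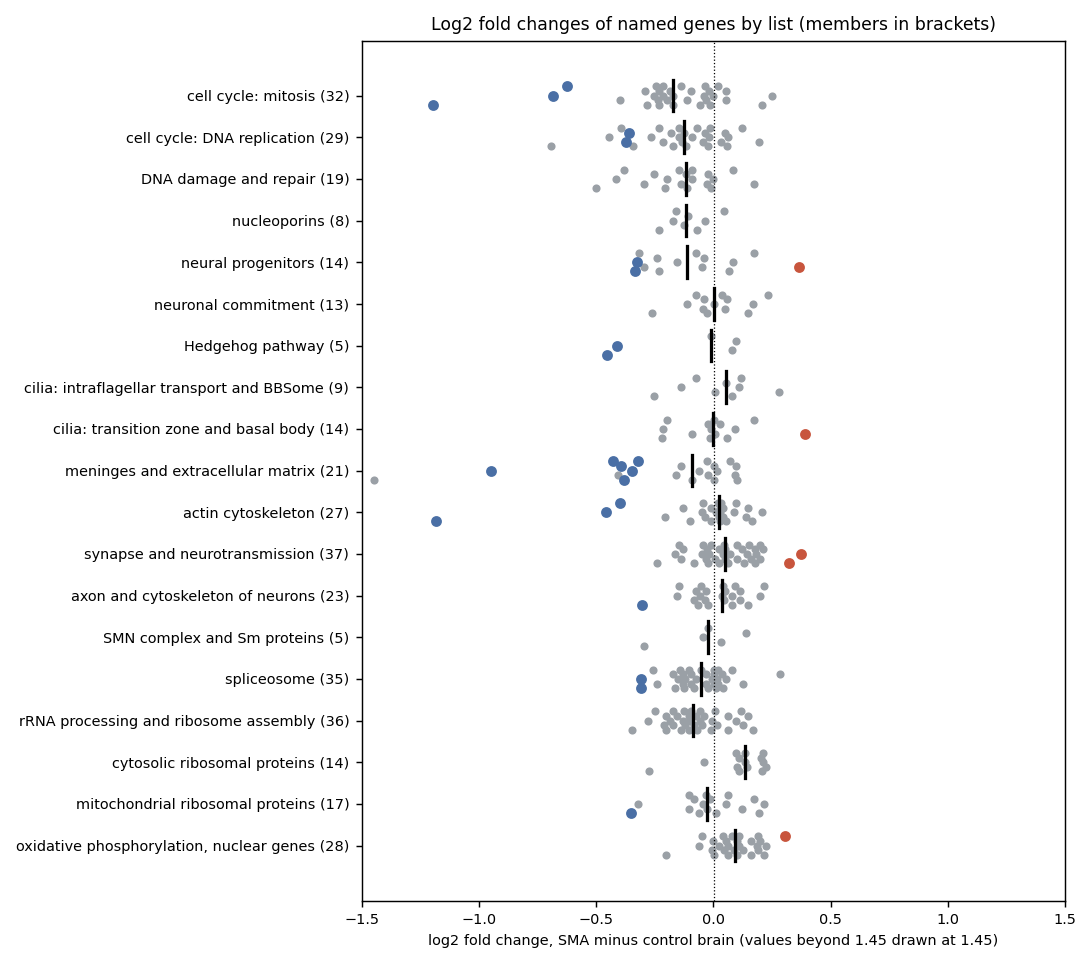
Log2 fold changes of SMA against control brain for the named members of 19 of the gene lists scored (number of members in brackets). Grey points did not pass the pathway thresholds, blue points passed as decreased and red points as increased, black bars are list medians and the dotted line is the median of all genes, 0.00. The bar of the mitosis list lies at -0.17 and that of cytosolic ribosomal proteins at 0.14, and 1 gene beyond the axis is drawn at its edge.

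Genes of synapses had 13 of 37 members lower, a median of 0.05, and 2 past the pathway thresholds, both increased. Syt5, a synaptotagmin of secretory vesicles, had 39, 30.9 and 34.2 normalized CPM in control and 37.8, 42.8 and 55.6 in SMA, and a log2 fold change of 0.37 (SE 0.16). Gabrb2, a subunit of the GABA-A receptor, had 101, 72.7 and 89.8 in control and 111, 90.6 and 131 in SMA, and a log2 fold change of 0.32 (SE 0.15). Both overlapped between genotypes and were highest in SMA 3. The call of Syt5 was lost without control 2 (0.29), control 3 (0.36) or SMA 3 (0.21), and that of Gabrb2 without control 2 (0.20), control 3 (0.34), SMA 1 (0.32) or SMA 3 (0.18). After detrending the median of the list was 0.06, with 10 of 37 members lower.

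Among 23 axon genes, 11 were lower with a median of 0.04, and 1 passed. Sema5a, a guidance cue for axons, had 181, 202 and 185 normalized CPM in control and 125, 174 and 160 in SMA, without overlap. Its log2 fold change was -0.31 (SE 0.12), and it did not pass without control 2 (-0.26) or SMA 1 (-0.18). The microtubule proteins Mapt and Map2 had 0.20 and 0.09 and the neurofilament genes Nefl and Nefm had -0.04 and -0.15, and none of these 4 passed.

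The list built around SMN held mostly genes of Sm proteins and of their methylation. It therefore cannot show how the SMN complex itself changed. Of 5 named members of the SMN complex and its Sm protein clients, 3 were lower, with a median of -0.02 and 0 past the pathway thresholds. Wdr77, part of the complex that methylates Sm proteins before SMN receives them, was the 1 member with an unadjusted p below 0.05 in edgeR, with 89.5, 97.6 and 74.6 normalized CPM in control and 71.2, 74.8 and 67.4 in SMA. Control 3 was level with SMA 2, and the log2 fold change of -0.29 (SE 0.12) was under the fold threshold. The Sm protein genes Snrpd1, Snrpd3 and Snrpf had 0.14, 0.03 and -0.04. Smn1 itself had no name at hand and was not analysed here, so the genotype of a library rests on its label.

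The spliceosome list had 22 of 35 members lower, a median of -0.05 (-0.08 without control 1 and -0.02 without SMA 3), and 2 past the pathway thresholds, both decreased and each just past the fold. Detrending gave a median of -0.08, with 29 of 35 members lower. By library, the median member deviated by 0.005, 0.059 and 0.030 (log2) in control and by 0.002, -0.003 and -0.061 in SMA. The genotypes thus did not overlap, though SMA 1 nearly touched control 1. This was not particular to the spliceosome. The library medians of the DNA repair, rRNA processing, Wnt, aminoacyl-tRNA synthetase and glycolysis lists did not overlap either, and those of most lists did. Zcrb1, a protein of the minor spliceosome, had -0.31 (SE 0.13), and Crnkl1, a core splicing factor, had -0.31 (0.13). The call of Zcrb1 was lost without control 1 (-0.27), control 2 (-0.27), SMA 1 (-0.31) or SMA 3 (-0.24), and that of Crnkl1 without control 1 (-0.32), control 2 (-0.31), control 3 (-0.30), SMA 1 (-0.21) or SMA 2 (-0.33). Lsm2, a subunit of the Sm-like ring on U6 snRNA, had 114, 111 and 116 normalized CPM in control and 135, 141 and 139 in SMA, with little spread in either group and no overlap. For Lsm2 the log2 fold change was 0.28 (SE 0.09, unadjusted p = 0.00753 in edgeR), which is under the fold threshold, and it lay between 0.27 and 0.30 with any library left out.

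Genes of rRNA processing and ribosome assembly had 27 of 36 members lower, with a median of -0.09 that lay between -0.09 and -0.06 with any library left out and was -0.07 after detrending. Of the 36, 0 passed the pathway thresholds and 1 had an unadjusted p below 0.05 in edgeR, Lsg1, a GTPase of late large-subunit assembly, with a log2 fold change of -0.28 (SE 0.12). Cytosolic ribosomal proteins ran the other way, with 12 of 14 members higher and a median of 0.14. By library their median deviation was -0.33 in control 1, and it lay between 0.04 and 0.11 in the other 5. Without control 1 the list median was 0.02, and after detrending it was 0.05. In edgeR 0 of these 14 genes had an unadjusted p below 0.05.

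Nuclear genes of oxidative phosphorylation were higher for 23 of 28 members at a median of 0.09, or 0.05 without control 1 and 0.03 after detrending. One of them passed the pathway thresholds, Ndufs6, a subunit of complex I, with 44.5, 55.7 and 52 normalized CPM in control and 60.6, 62.1 and 64.4 in SMA. Its libraries did not overlap, and the log2 fold change of 0.31 (SE 0.12) no longer passed without control 1 (0.21), SMA 2 (0.31) or SMA 3 (0.28). Mitochondrial ribosomal proteins had 10 of 17 members lower, a median of -0.03 (-0.08 without SMA 2 and 0.03 without control 1) and 1 past the thresholds, Mrpl40, with 34.9 ± 2 (SD, n = 3) in control against 27.3 ± 3.04 (SD, n = 3) in SMA and a log2 fold change of -0.35 (SE 0.14). The call of Mrpl40 was lost without control 2 (-0.32), control 3 (-0.34), SMA 1 (-0.28) or SMA 2 (-0.35). Nucleoporins had 7 of 8 members lower with a median of -0.12 (-0.06 without control 1 and -0.19 without SMA 2) and 0 past the pathway thresholds. Among them Nup50, which helps importins release cargo, had 85.2 ± 2.33 (SD, n = 3) against 72.5 ± 1.8 (SD, n = 3) normalized CPM, without overlap, and -0.23 (SE 0.10).

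Of 21 named genes of liver and yolk sac, 6 passed the pathway thresholds, all increased. Without SMA 1 the calls of Apoa2, Apob, Itih1 and Itih3 were lost, and those of Vtn and Tmprss6 were not. In the list 19 of the 21 had a mean under 20 counts. Without Vtn the list summed to 3.60, 7.05 and 3.61 normalized CPM in control and to 54.9, 4.96 and 9.63 in SMA, so that SMA 1 stood alone. Apob, the apolipoprotein of low density lipoprotein, had 2.22, 2.07 and 0.482 in control and 33.4, 0.919 and 0.551 in SMA. Its log2 fold change of 2.65 (SE 1.15) became -1.16 without SMA 1, and its call was lost without control 1 (3.03), control 3 (2.34) or SMA 1 (-1.16). Apoa2, another apolipoprotein, had 0, 0 and 0 in control and 3.53, 0 and 0 in SMA, and its call was lost without SMA 1 and without any 1 of the 3 control libraries. Without SMA 1, 2 members of the list passed the pathway thresholds, and without control 1, 2 did as well.

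H19, the imprinted non-coding RNA that is abundant in fetal liver and mesoderm, followed the same library, with 3.49, 0.414 and 0.722 normalized CPM in control and 34.8, 2.76 and 1.93 in SMA. The log2 fold change of 2.70 (SE 1.04) was 0.32 without SMA 1, where the call was lost, and 4.43 without control 1. The 4 erythroid markers with a name summed to 6.34, 6.42 and 6.02 in control and 9.79, 7.53 and 7.43 in SMA, without overlap. All 9 genes of the longer erythroid list summed to 96.8, 76.7 and 105 in control and 97.1, 77.3 and 100.5 in SMA, which overlapped. Vtn, or vitronectin, which cells of brain vessels express too, had 35.7, 29.8 and 35.6 in control and 39.7, 44.6 and 44 in SMA, without overlap and with SMA 1 the lowest of the SMA libraries. For Vtn the log2 fold change was 0.34 (SE 0.13), and its call was lost without control 2 (0.26), SMA 2 (0.31) or SMA 3 (0.32). Whether liver or yolk sac tissue entered SMA 1 was not tested.

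**Figure D4:**
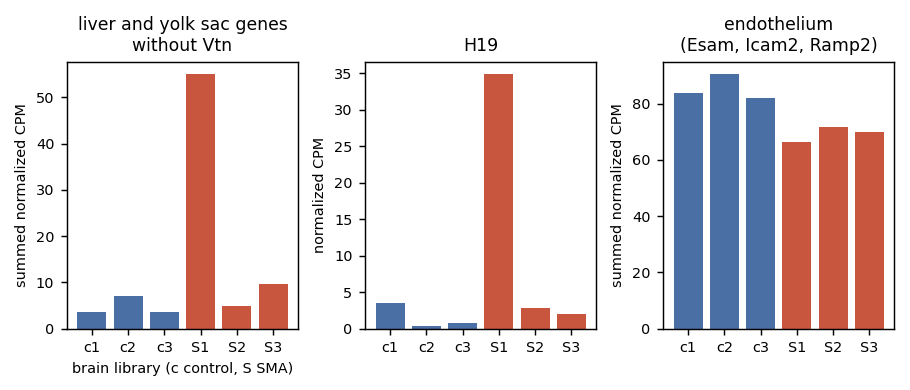
Summed normalized CPM of the liver and yolk sac list without Vtn, normalized CPM of H19, and summed normalized CPM of 3 endothelial markers in each brain library (c1 to c3 control, S1 to S3 SMA). SMA 1 reaches 54.9 and 34.8 in the first 2 panels against at most 9.63 and 3.49 elsewhere, and the sum of the 3 endothelial markers is lower in each SMA library than in each control library, while the sum of the 6-gene endothelial list overlaps, with 119 in control 3 against 131 in SMA 2.

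Genes without a name at hand made up 129 of the 160 calls. Those set out here were picked by smallest p under the same conditions, with no overlap as one of them. ENSMUSG00000034867 had 36.4, 40.0 and 38 normalized CPM in control and 26.6, 21.7 and 23.4 in SMA, and ENSMUSG00000037572 had 36.5, 34.4 and 31.8 in control and 21.2, 25.7 and 21.7 in SMA. Both were decreased without overlap, with log2 fold changes of -0.68 (SE 0.14) and -0.58 (0.14), and they lay between -0.76 and -0.60 and between -0.68 and -0.52 with any library left out. ENSMUSG00000032554 was increased, with 16.8, 15.1 and 18.1 in control and 63.6, 23.1 and 30.6 in SMA. SMA 1 stood above the other SMA libraries together, and the log2 fold change of 1.21 (SE 0.30) was 0.67 without it. SMA 1 is also the library in which the liver and yolk sac genes and H19 stood apart, and a link was not tested. ENSMUSG00000022969 had 2.54, 3.32 and 1.69 in control and 4.62, 4.59 and 12.4 in SMA, and a log2 fold change of 1.46 (SE 0.43) that was 0.85 without SMA 3.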

How the data were processed

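Per the submitters' processing notes and the paper's methods, the authors trimmed reads with cutadapt 4.1, discarded rRNA and tRNA reads and used STAR 2.5.3a with GRCm38.p6. They deposited raw counts of footprints per gene, without normalization, for genes past an FPKM filter. The counting tool, and whether reads at one position were removed before counting, are not given in the sources used here. Mapping allowed a read several alignments, and how such reads were counted is not given, so near-identical genes may share counts. In all, 27 genes had the same counts as another gene in all 12 libraries, and 0 of these passed the study thresholds. Libraries of a group differed by more than sampling noise.

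The 6 brain columns were fitted with edgeR 4.0.16 in R 4.3.3 (TMM, estimateDisp, glmQLFit with the legacy setting, glmQLFTest, 2-sided, no covariate), with Benjamini-Hochberg adjustment over 10481 genes. The alternatives were DESeq2 1.42.0, other scalings, filters, thresholds and fits, detrending, a replicate block, and each library left out. Detrending subtracts a loess curve (span 0.5) of each library on counts per base. The standard error is the unshrunk log2 fold change over the square root of F. In simulated counts of these libraries 97.5% of 200 genes changed 2-fold passed the study thresholds, and 89% had an adjusted p below 0.05 in edgeR. These 200 all had a mean of at least 20 counts, and smaller changes or weaker genes were not simulated as changed. The course of control 1 along counts per base was not simulated either. In the same simulation 128 unchanged genes also passed, beside the 160 calls of the data. A decreased share of 65.0% has a 95% Wilson interval of 57.3% to 72.0%, for counting error only. Figures used Python 3.11.15 and matplotlib 3.10.9.

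Names came from a supplementary table of the study. Of the 1999 symbols at hand, 1976 are in RefSeq GRCm38.p6, which gave positions and promoters. The comparison, the gene lists and the rule for named genes were chosen with earlier results of these data known. The rule took named genes past the study thresholds with at least 20 counts and no overlap (up to 10 each way, of which 6 decreased and 2 increased qualified), 2 genes each way without a name, up to 3 members of each list, Cep290 and cell type markers. Other members of a list were added for their role after values were seen. Same-numbered libraries had correlations of their deviations of -0.15, 0.01 and 0.06.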

Additional observations from a re-analysis of the deposited data

How the results depend on the processing

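At the study thresholds, the 160 calls (104 decreased, 56 increased, 65.0% decreased) became 91 (65 and 26) with DESeq2, which gave 220 pathway calls (151 and 69) and 320 genes with an unadjusted p below 0.05. A single fit over all 12 libraries gave 28 increased calls, 74 increased pathway calls and a decreased share of 75.7%. The filter filterByExpr gave 37 increased calls and a share of 72.2%, and library size alone a share of 72.5%. Detrending gave 68 decreased calls and a share of 45.6%. A smallest size of change of 0.3 gave 394 calls (269 and 125) and one of 1 gave 53 (24 and 29, a share of 45.3%). Same-numbered libraries did not deviate together, so the numbers were not taken as pairs. With the replicate number as a block there were 175 calls, and 2 genes had an adjusted p below 0.05 in edgeR. With a library left out, there were 169 to 273 calls (100 to 181 decreased, 53 to 92 increased, a share of 52.1% to 68.6%), 125 to 217 increased pathway calls, with the 273 and 181 without SMA 2, the 92 without SMA 2 or control 1 and the 217 without control 1, and 0 to 2 genes with an adjusted p below 0.05 in edgeR. Apob turned from 2.65 to -1.16 without SMA 1 and was 3.27 without SMA 2. Over the genes set out by name, 786 values kept direction and side of an unadjusted p of 0.05, 153 went above it, 19 went below it and 1 reversed, and of the gene list medians 591 moved by less than the spread between libraries and 49 by more. With a library left out, the medians of the synapse, axon and intraflagellar transport lists ranged from 0.02 to 0.09, from -0.01 to 0.06 and from -0.01 to 0.10. The cause of these changes was not tested.

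Counts limit the precision: 1072 of the 10481 genes had a mean under 20 counts, and 43 of the 160 calls are among them. The groups are 3 libraries each, and without RNA-seq of the same embryos mRNA level and ribosome load cannot be told apart. Pathway lists hold only members with a name at hand, so a count of members called says nothing about the rest of the pathway.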
